A study of Mus musculus with 16 samples.

Results

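The Tsc1 effect, the difference in signal between Tsc1-deficient and wild-type naive T cells, was compared between the CD8 and the CD4 lineage. The comparison rests on 10 of the 16 arrays of the series, those of unstimulated cells, which were chosen by cell type, genotype and stimulation in the labels. They hold 2 arrays of Tsc1-deficient CD8 cells, 2 of wild-type CD8 cells, 3 of Tsc1-deficient CD4 cells and 3 of wild-type CD4 cells. All were naive T cells sorted from mice on a C57BL/6 background, and RNA from them was read on Affymetrix expression arrays. The other 6 arrays, CD4 cells of both genotypes stimulated for 4 h with plate-bound anti-CD3 and anti-CD28, contributed to the estimate of the spread and gave a further readout of the CD4 effect. The treatment text of the labels names HIF1a in place of Tsc1 as the deficient gene in 1 sentence, whereas the genotype entries and titles name Tsc1 and were followed. The Cre driver or other means of deletion, the sorting markers, the ages and the number of mice behind an array are not given in the sources used here. No label states that the arrays of a group came from different mice, and the p-values therefore reflect the spread among arrays only, part or all of which may be technical.

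Tsc1 is a subunit of the TSC complex, which switches off the small GTPase Rheb and so restrains mTORC1, the kinase complex that couples nutrients and growth signals to protein synthesis, lipid synthesis and cell growth. In mice this brake helps to keep naive T cells small, quiescent and alive until they meet antigen. CD4 and CD8 cells arise from a common thymic precursor and differ in the transcription factors that fix their fate, ThPOK in helper cells and Runx3 in cytotoxic cells, so the same lesion acts on different starting states. The question addressed was for which genes the lesion had a different effect in the 2 lineages.

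For each of 17097 genes the probe set that names only that gene and has the highest mean over all arrays was used. The value of interest, called the lineage difference here, was the CD8 effect (Tsc1-deficient minus wild type) minus the CD4 effect, on the log2 scale. A positive lineage difference means that the effect was more positive in CD8 cells, and a negative one that it was more positive in CD4 cells or more negative in CD8 cells. Every ± after an effect or a lineage difference is a standard error from limma, with 2 arrays per CD8 group and 3 per CD4 group, and every adjusted p is limma's, with Benjamini-Hochberg adjustment over all 17097 genes. A gene was called at adjusted p under 0.05. A group mean under the table median of 3.36 was taken as near background, and one above the 99th percentile of all values, 11.28, as near saturation. The highest value in the table was 14.01. An effect measured against a group near background starts from the floor of the array and does not give the true size of the change.

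The arrays were checked against their labels first. Replicate arrays of the unstimulated groups correlated at 0.994 to 0.997. Cd8b1, a chain of the CD8 co-receptor, lay at 12.33 to 12.48 on the CD8 arrays, against 8.01 to 8.67 on the unstimulated CD4 arrays. Cd4 lay at 3.95 to 5.13 on the CD8 arrays and at 8.89 to 9.04 on the unstimulated CD4 arrays. Tsc1 had signals of 6.36 and 6.41 in deficient CD8 cells, against 6.99 and 6.88 in wild-type CD8 cells. In CD4 cells it had 6.42, 6.54 and 6.502 in deficient and 7.25, 7.39 and 7.29 in wild-type cells. It was lower on every deficient array in both lineages (CD8 effect -0.55 ± 0.12, CD4 effect -0.83 ± 0.09), with a lineage difference of 0.27 and a 95% interval of -0.05 to 0.59. Its other 2 probe sets had CD8 effects of 0.08 and 0.10 and CD4 effects of -0.19 and -0.13. The first of these had means under the table median in all groups (3.04 to 3.23). The position of the probes with respect to the deletion is not known here. With probe sets averaged the CD8 effect on Tsc1 was -0.13 (adjusted p = 0.554), and with wild-type CD8 replicate 1 left out it was -0.50 (adjusted p = 0.109), neither of which passed.

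Several arrays stood apart. The difference between the control probe sets at the 3′ and 5′ ends of Gapdh, a sign of RNA or amplification quality, was 0.28 and 0.64 in deficient CD8 cells and 0.39 and 0.40 in wild-type CD8 cells, against 0.12 to 0.23 in deficient CD4 cells and 0.11 to 0.20 in wild-type CD4 cells, so that it moved with lineage. A list of 27 immediate early genes and other genes induced through the T cell receptor is called immediate early genes here for short. On replicate 1 its mean signal was 7.31 in deficient CD8, 7.25 in deficient CD4 and 7.23 in wild-type CD4 cells. On the other 7 unstimulated arrays it was 7.73 to 7.91. No wild-type CD8 array was among the low ones. Replicate numbers follow the order of deposit and carry no meaning of their own. Fits without those arrays, with the Gapdh difference as a covariate and with array weights are given below. Beyond these, whether the differences between arrays play a part in the results was not tested.

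Few genes were called for a Tsc1 effect that differed between the lineages, and a gene without a call was not shown to have equal effects. Of 17097 genes, 20 (0.117%) were called for the lineage difference, 12 of them positive (0.0702%) and 8 negative (0.0468%), and 17 of the 20 exceeded 2-fold. At an unadjusted p under 0.05 there were 1328 genes (7.77%), and 24 genes passed an adjusted p of 0.1. With the Gapdh difference as a covariate 27 genes were called, 19 of the 20 among them. With array weights 22 were called, again with 19 of the 20. The largest lineage differences belonged to Ccr9 (-2.86 ± 0.30), the receptor for the gut chemokine CCL25, found on thymocytes and on T cells that home to the small intestine, and Igfbp4 (-2.20 ± 0.31), a secreted protein that binds insulin-like growth factors. The 2 arrays with the largest Gapdh difference in the series were stimulated deficient CD4 replicate 1 (0.96) and deficient CD8 replicate 2 (0.64). Leaving out both gave the called genes the same lineage differences as leaving out deficient CD8 replicate 2 alone. Only the estimate of the spread differed between these fits. The count and its balance were unstable. Of the calls, 5 of 24 were positive without deficient CD8 replicate 1, 15 of 19 without deficient CD8 replicate 2 and 22 of 31 without the 2 arrays with the largest Gapdh difference. It ranged from 7 to 24 with each unstimulated array left out in turn, falling to 8, 10 and 8 without wild-type CD4 replicate 1, 2 and 3, to 11, 12 and 10 without deficient CD4 replicate 1, 2 and 3, and to 9 and 7 without wild-type CD8 replicate 1 and 2. It was 5 without the 3 arrays low in immediate early genes and 5 with the unstimulated arrays fitted alone and deficient CD8 replicate 2 left out, both settings added after the data were seen.

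Ccr9, Klrd1, Stmn1, Adipoq, Gria3 and Pltp kept their call with any 1 array left out, at adjusted p of at most 0.041, and under each of the other alternatives fixed for the comparison that held them. Igfbp4 lost it only without wild-type CD8 replicate 1 among those arrays (-2.05, adjusted p = 0.0638). Without the 3 arrays low in immediate early genes, Ccr9, Klrd1, Stmn1 and Gria3 were still called (each adjusted p = 0.0268), whereas Adipoq (-1.90, adjusted p = 0.0655), Pltp (1.28, adjusted p = 0.107) and Igfbp4 (-2.18, adjusted p = 0.117) were not. Fitting the unstimulated arrays alone with deficient CD8 replicate 2 left out also left 1 deficient CD8 array. Ccr9 (-2.97), Klrd1 (-1.52) and Igfbp4 (-2.21) were still called there, whereas Stmn1 (1.31), Pltp (1.54), Adipoq (-1.77) and Gria3 (1.52) were not. Ccr9 and Klrd1 were thus called in all of these fits. A fit with 1 array in a group takes its spread from the other groups. Leaving out any 1 CD8 array has the same limit. The other 13 called genes lost the call without 5 or more of the arrays in turn, and without all 10 in turn in the case of Mki67 and Rab11fip4. All 20 kept the sign of the lineage difference in each of these fits.

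**Figure D1:**
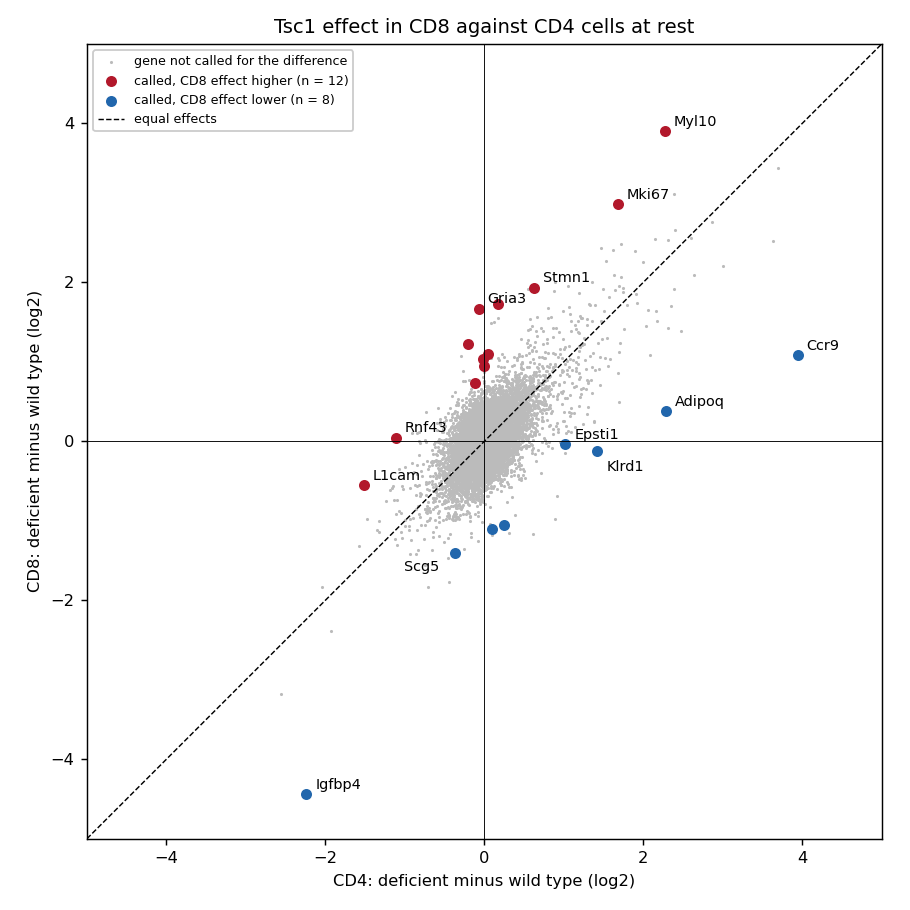
Each point is 1 of 17097 genes, placed by its Tsc1 effect in CD4 cells (x axis, log2) and in CD8 cells (y axis, log2), with the dashed line marking equal effects. The 12 genes called with a higher effect in CD8 cells (red) lie above the line and the 8 with a lower one (blue) below it, with Ccr9 and Igfbp4 farthest from it.

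The background to these genes was an effect that ran the same way in both lineages. In CD8 cells 995 genes (5.82%) were called between deficient and wild-type cells, 622 higher (3.64%) and 373 lower (2.18%), and in CD4 cells 997 (5.83%), 677 higher (3.96%) and 320 lower (1.87%). In stimulated CD4 cells 9.45% of genes were called between the genotypes. Between the lineages, CD8 against CD4, 6.68% of genes were called in deficient and 5.04% in wild-type cells. The CD8 and CD4 effects share no arrays. Of these genes 461 were called in both lineages, 46.3% of the CD8 and 46.2% of the CD4 genes, and all 461 had the same direction, 342 higher and 119 lower. Among these 461, the CD8 effect was the larger in size for 327 and the CD4 effect for 134, a tally that the selection fixes in part, since with fewer arrays a CD8 effect had to be larger to be called. Across all genes the effects correlated with Pearson's r of 0.62 and Spearman's rho of 0.41, and across the 9794 genes whose mean exceeded the table median in at least 1 unstimulated group with 0.69 and 0.57. These are correlations across genes, which are not independent replicates.

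Many genes were called in 1 lineage alone, 534 in CD8 and 536 in CD4 cells, but for few of them did the test of the difference itself pass. It passed for 10 of the 534 and for 4 of the 536, and for 6 of the 461 called in both. Of the genes called in CD8 cells, 94.8% had the same sign in CD4 cells, and of those called in CD4 cells 94.5% had the same sign in CD8 cells, against 61.5% of all genes. The genes called in CD8 cells had a median effect size of 0.68 there and of 0.41 in the same direction in CD4 cells. Those called in CD4 cells had 0.57 there and 0.47 in the same direction in CD8 cells. The median standard error was 0.19 for the lineage difference, against 0.15 for the CD8 and 0.12 for the CD4 effect.

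Ccr9 carried the largest lineage difference, and wild-type CD4 cells were the group with a low signal. It stood at 11.70 and 11.92 in deficient CD8 cells, against 10.68 and 10.78 in wild-type CD8 cells. In CD4 cells it stood at 10.63, 10.67 and 10.52 in deficient and at 6.94, 6.65 and 6.41 in wild-type cells. The deficient arrays were above the wild-type arrays in both lineages. Arrays of the genotypes did not overlap, in either direction, for 46% of all genes in CD8 and 28.6% in CD4 cells. For Ccr9, deficient CD4 cells came to the level of wild-type CD8 cells. Ccr9 rose 2.12-fold in CD8 cells (1.08 ± 0.23, adjusted p = 0.0104) and 15.4-fold in CD4 cells (3.94 ± 0.19, adjusted p = 3.5e-09). The lineage difference was -2.86 with a 95% interval of -3.50 to -2.22 (adjusted p = 0.000775).

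The deficient CD8 mean of Ccr9 lay above the 99th percentile. The CD8 effect lost its call without wild-type CD8 replicate 1 (1.03, adjusted p = 0.101) or 2 (1.13, adjusted p = 0.0544) and without deficient CD8 replicate 2 (0.97, adjusted p = 0.0807). Ccr9 has 3 further probe sets. A dimmer one, at 8.15 in deficient CD8, 6.97 in wild-type CD8, 6.60 in deficient CD4 and 2.91 in wild-type CD4 cells, gave a lineage difference of -2.51 (adjusted p = 3.33e-05 over all probe sets) with all groups under the 99th percentile. Another gave -2.60, and the dimmest, with means between 2.70 and 4.75, gave 0.00. In stimulated CD4 cells Ccr9 was at 5.27, 6.32 and 5.69 on deficient arrays, against 3.80, 3.67 and 3.71 on wild-type arrays, a rise of 2.04 ± 0.19 (adjusted p = 6.11e-06). The CD8 minus CD4 difference of Ccr9 was 1.21 between deficient cells and 4.07 between wild-type cells.

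Klrd1 and Epsti1 resembled Ccr9 in that CD8 cells of both genotypes were bright. Klrd1 encodes CD94, which pairs with NKG2 lectin receptors on cytotoxic and natural killer cells, and it stood at 11.59 and 11.54 in deficient CD8 and 11.63 and 11.74 in wild-type CD8 cells. On CD4 arrays the signal was 10.49, 10.13 and 10.25 in deficient and at 8.78, 8.94 and 8.89 in wild-type cells, so that every deficient CD4 array was above every wild-type one. It rose 2.68-fold in CD4 cells (1.42 ± 0.11, adjusted p = 5.52e-07), whereas the CD8 effect was -0.12 ± 0.13 (adjusted p = 0.701). The lineage difference was -1.54 ± 0.17 (adjusted p = 0.000775). Both CD8 means exceeded the 99th percentile, at 11.57 in deficient and 11.69 in wild-type cells, and only 1 probe set represents the gene, and whether the range of the array limits the CD8 effect was not tested. In stimulated CD4 cells the effect on Klrd1 was 0.18 ± 0.11 (adjusted p = 0.375).

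Epsti1, an interferon-inducible gene first described in breast epithelium, had 11.72 and 11.35 in deficient CD8 cells and 11.66 and 11.46 in wild-type CD8 cells, with overlapping arrays. In CD4 cells it had 11.08, 10.99 and 10.87 in deficient and 9.996, 10.003 and 9.896 in wild-type cells, with no overlap. The lineage difference was -1.05 ± 0.17 (adjusted p = 0.0207), from a CD4 effect of 1.02 ± 0.11 (adjusted p = 1.57e-05) and a CD8 effect of -0.03 ± 0.13. Both CD8 means were above the 99th percentile. A second probe set, at 6.82 in deficient and 7.23 in wild-type CD8 cells, gave -1.11, which did not pass (adjusted p = 0.515 over all probe sets). The call was lost without any 1 wild-type CD4 or wild-type CD8 array, without deficient CD4 replicate 1 or 2 or without deficient CD8 replicate 2 (-0.87 to -1.23 over the 10 arrays left out in turn, largest adjusted p = 0.196). Epsti1 also rose in stimulated CD4 cells (1.73 ± 0.11, adjusted p = 1.34e-07).

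Adipoq, which encodes the fat-cell hormone adiponectin, was near background in CD8 cells. It stood at 2.64 and 2.37 in deficient CD8 cells and at 2.11 and 2.13 in wild-type CD8 cells. CD4 arrays had it at 4.94, 4.27 and 4.94 in deficient and at 2.38, 2.62 and 2.31 in wild-type cells, and only the deficient CD4 arrays lay above the table median. It rose by 2.28 ± 0.16 in CD4 cells (adjusted p = 1.93e-07), measured against a wild-type group near background, and the lineage difference was -1.90 ± 0.25 (adjusted p = 0.00322). In stimulated CD4 cells the effect was 0.14 ± 0.16 (adjusted p = 0.7), with all arrays between 2.23 and 2.69. Fabp4, another fat-cell gene, looked up after Adipoq was seen, averaged 2.82 in deficient and 2.50 in wild-type CD4 cells, under the table median, with a CD4 effect of 0.33 ± 0.12 (adjusted p = 0.145).

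Igfbp4 fell in both lineages and farther in CD8 cells. It stood at 6.16 and 6.18 in deficient CD8 cells, against 10.75 and 10.47 in wild-type CD8 cells. Among CD4 arrays it lay at 9.43, 9.06 and 9.28 in deficient and at 11.64, 11.36 and 11.48 in wild-type cells. The deficient arrays were the lower ones in both lineages without overlap, and the deficient CD8 arrays were the lowest of all. Igfbp4 fell by 4.44 ± 0.24 in CD8 cells (adjusted p = 2.44e-08) and by 2.24 ± 0.20 in CD4 cells (adjusted p = 2.57e-06), a lineage difference of -2.20 ± 0.31 (adjusted p = 0.00637). The wild-type CD4 mean lay above the 99th percentile. Of 5 further probe sets, 3 gave lineage differences of -2.44, -1.89 and -1.41 (adjusted p = 0.0182, 0.0511 and 0.0296 over all probe sets), and the other 2 gave -0.11 and -0.19 with no call, while all of them were lower in the deficient cells of both lineages.

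**Figure D2:**
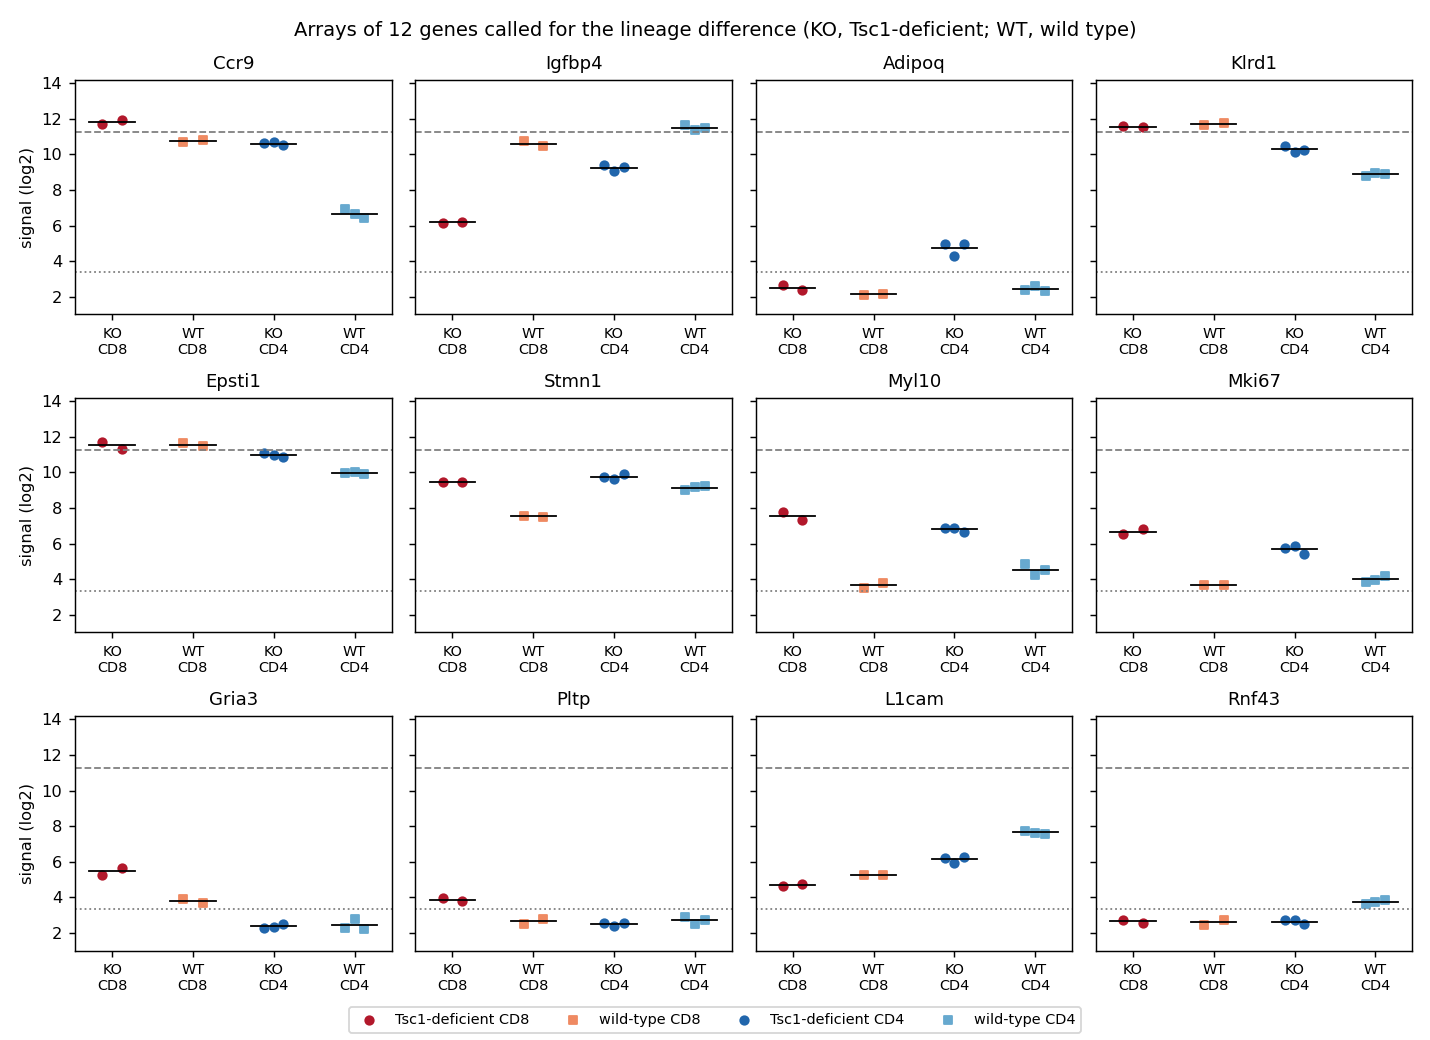
Each panel shows 1 gene called for the lineage difference and each point 1 unstimulated array, as log2 signal, with KO for Tsc1-deficient and WT for wild type and a bar at the group mean. The dotted line is the table median (3.36) and the dashed line the 99th percentile (11.28); the means of Ccr9 in deficient CD8 cells, of Klrd1 and Epsti1 in both CD8 groups and of Igfbp4 in wild-type CD4 cells lie above the upper line, and Adipoq, Gria3, Pltp and Rnf43 have groups below the lower one.

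Stmn1 and Mki67, which mark dividing cells, were raised in deficient cells of both lineages and more so in CD8 cells. Stmn1 encodes stathmin, which destabilises microtubules, and stood at 9.46 and 9.46 in deficient CD8 cells, against 7.55 and 7.503 in wild-type CD8 cells. In CD4 cells it stood at 9.75, 9.63 and 9.90 in deficient and at 8.997, 9.20 and 9.21 in wild-type cells. The deficient cells of the 2 lineages came close to each other, and the wild-type CD8 arrays were lowest. Stmn1 rose 3.82-fold in CD8 cells (1.93 ± 0.12, adjusted p = 4.64e-08) and 1.54-fold in CD4 cells (0.62 ± 0.09, adjusted p = 0.00055), a lineage difference of 1.31 ± 0.15 (adjusted p = 0.000775). A second, dimmer probe set gave 1.25 (adjusted p = 0.0195 over all probe sets). The CD8 minus CD4 difference of Stmn1 was -0.30 between deficient cells (adjusted p = 0.109) and -1.61 between wild-type cells (adjusted p = 2.8e-08).

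Mki67 encodes Ki-67, a nuclear protein of cycling cells, and stood at 6.52 and 6.83 in deficient CD8 cells, against 3.69 and 3.69 in wild-type CD8 cells. On CD4 arrays the signal was 5.76, 5.84 and 5.43 in deficient and at 3.84, 3.97 and 4.17 in wild-type cells. The wild-type arrays of both lineages were close to each other and the deficient arrays were above them. Mki67 rose 7.93-fold in CD8 cells (2.99 ± 0.19, adjusted p = 6.85e-08) and 3.2-fold in CD4 cells (1.68 ± 0.15, adjusted p = 3.58e-06). The lineage difference of 1.31 ± 0.24 passed narrowly (adjusted p = 0.0492) and missed the threshold with any 1 of the 10 arrays left out (1.16 to 1.46, adjusted p = 0.0533 to 0.253). In bulk RNA a rise in such genes in a few cells and a smaller one in all cells cannot be told apart, nor can fewer cells of a type and less RNA per cell.

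Myl10, a myosin regulatory light chain, had the largest rise in CD8 cells among the called genes. It stood at 7.77 and 7.33 in deficient CD8 cells, against 3.52 and 3.79 in wild-type CD8 cells. CD4 arrays had it at 6.89, 6.87 and 6.65 in deficient and at 4.84, 4.25 and 4.50 in wild-type cells, with deficient arrays higher in both lineages. It rose 14.9-fold in CD8 cells (3.90 ± 0.20, adjusted p = 2.44e-08) and 4.83-fold in CD4 cells (2.27 ± 0.17, adjusted p = 4.03e-07), a lineage difference of 1.63 ± 0.26 (adjusted p = 0.0207). The order of the lineages turned, with a CD8 minus CD4 difference of 0.75 between deficient cells (adjusted p = 0.0206) and of -0.88 between wild-type cells (adjusted p = 0.00913). The call of the lineage difference was lost without wild-type CD4 replicate 1 or 3, deficient CD4 replicate 3, either wild-type CD8 array or deficient CD8 replicate 1 (1.41 to 1.85 over the 10 arrays left out in turn, largest adjusted p = 0.19).

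A group of genes rose in CD8 cells and was near background in CD4 cells of both genotypes. Gria3, a subunit of AMPA-type glutamate receptors, stood at 5.23 and 5.67 in deficient CD8 cells, against 3.91 and 3.65 in wild-type CD8 cells. Among CD4 arrays it lay at 2.28, 2.31 and 2.49 in deficient and at 2.28, 2.80 and 2.21 in wild-type cells, where the arrays overlapped and lay under the table median. It rose 3.18-fold in CD8 cells (1.67 ± 0.18, adjusted p = 2.9e-05), with a lineage difference of 1.74 ± 0.23 (adjusted p = 0.00322), and its second probe set gave 1.44 (adjusted p = 0.0533 over all probe sets). Pltp, a phospholipid transfer protein, stood at 3.97 and 3.76 in deficient CD8 cells and at 2.48 and 2.79 in wild-type CD8 cells, with CD4 arrays at 2.39 to 2.56 in deficient and 2.50 to 2.87 in wild-type cells. Its lineage difference was 1.44 ± 0.19 (adjusted p = 0.00333), and only its deficient CD8 arrays lay above the table median.

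The unnamed transcript 5430427O19Rik (1.55 ± 0.27, adjusted p = 0.0311), Glrp1 (1.06 ± 0.19, adjusted p = 0.0333) and Acsbg3 (0.94 ± 0.17, adjusted p = 0.0333) had the same shape, with CD4 means of at most 2.78. For these 5 genes a CD4 effect smaller than the background could not have been seen. In CD8 cells 5430427O19Rik stood at 5.29 and 4.90 in deficient and at 3.53 and 3.20 in wild-type cells. Glrp1 stood at 3.73 and 3.59 in deficient and at 2.81 and 2.44 in wild-type CD8 cells, and Acsbg3 at 3.84 and 3.56 in deficient and 2.74 and 2.77 in wild-type CD8 cells. The second probe set of Acsbg3 gave a lineage difference of 0.04, but its means were near background in all 4 groups (2.36 to 2.43). Each of the 3 lost the call without deficient CD8 replicate 1, wild-type CD8 replicate 2 and several CD4 arrays, at adjusted p of up to 0.253 for 5430427O19Rik, 0.266 for Glrp1 and 0.212 for Acsbg3.

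Atg9a and Rab11fip4 rose in CD8 cells and were well above background in both lineages. Atg9a encodes a membrane protein that supplies lipid to growing autophagosomes, and it stood at 5.66 and 5.98 in deficient CD8 cells, against 4.93 and 4.51 in wild-type CD8 cells. In CD4 cells it stood at 5.50, 5.47 and 5.46 in deficient and at 5.42, 5.45 and 5.43 in wild-type cells, a narrow span in which the deficient arrays were still all higher. The CD8 effect was 1.10 ± 0.14 (adjusted p = 0.00019), the CD4 effect 0.05 ± 0.12 (adjusted p = 0.906) and the lineage difference 1.05 ± 0.18 (adjusted p = 0.0333). Rab11fip4, an effector of the recycling-endosome GTPase Rab11, stood at 7.60 and 7.73 in deficient CD8 and 6.95 and 6.90 in wild-type CD8 cells, and at 7.26, 7.16 and 7.21 in deficient CD4 and 7.33, 7.32 and 7.33 in wild-type CD4 cells. Its effects were 0.74 ± 0.12 in CD8 and -0.12 ± 0.10 in CD4 cells, with a lineage difference of 0.86 ± 0.16 (adjusted p = 0.0421). In stimulated CD4 cells Rab11fip4 rose as well (0.44 ± 0.10, adjusted p = 0.00883), so the rise was not confined to CD8 cells.

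The Rab11fip4 call was lost with any 1 array left out (0.80 to 0.92, adjusted p = 0.06 to 0.253), and its other 2 probe sets gave -0.15 and 0.38. Atg9a kept its call only without wild-type CD8 replicate 1 or deficient CD8 replicate 1 (0.84 to 1.27 over the 10 arrays left out in turn).

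Scg5, Tmtc4 and 4930486L24Rik were lower in deficient CD8 cells. Scg5 encodes a chaperone of a prohormone convertase and stood at 4.34 and 4.16 in deficient CD8 cells, against 5.63 and 5.69 in wild-type CD8 cells. On CD4 arrays the signal was 5.55, 5.35 and 5.26 in deficient and at 5.76, 5.81 and 5.70 in wild-type cells. Every deficient array was below every wild-type array of its lineage, and the gap was wider in CD8 cells. Scg5 fell by 1.41 ± 0.13 in CD8 cells (adjusted p = 6.31e-06), the CD4 effect was -0.37 ± 0.11 (adjusted p = 0.0503), and the lineage difference was -1.04 ± 0.17 (adjusted p = 0.0207).

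Tmtc4, a membrane protein of the endoplasmic reticulum, stood at 5.89 and 5.33 in deficient CD8 cells and at 6.80 and 6.61 in wild-type CD8 cells. CD4 arrays had it at 6.58, 6.65 and 6.56 in deficient and at 6.46, 6.56 and 6.48 in wild-type cells, so that only the deficient CD8 arrays were low. Its CD8 effect was -1.10 ± 0.16 (adjusted p = 0.000635) and its lineage difference -1.20 ± 0.21 (adjusted p = 0.0333). The unnamed 4930486L24Rik stood at 5.42 and 5.39 in deficient CD8 and 6.45 and 6.46 in wild-type CD8 cells, with a lineage difference of -1.30 ± 0.24 (adjusted p = 0.0493). Among the 10 fits with an array left out, Scg5 was called in 4 (adjusted p up to 0.142), Tmtc4 only without deficient CD8 replicate 1 (others up to 0.238) and 4930486L24Rik only without deficient CD4 replicate 1 (others up to 0.253).

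L1cam and Rnf43 fell in CD4 cells. L1cam, a cell adhesion molecule, stood at 4.63 and 4.73 in deficient CD8 cells, against 5.23 and 5.23 in wild-type CD8 cells. Among CD4 arrays it lay at 6.20, 5.93 and 6.25 in deficient and at 7.74, 7.63 and 7.57 in wild-type cells, so that deficient arrays were lower in both lineages. It fell by 0.55 ± 0.12 in CD8 cells (adjusted p = 0.0116) and by 1.52 ± 0.10 in CD4 cells (adjusted p = 1.01e-07), and the lineage difference was 0.97 ± 0.16 (adjusted p = 0.0207). Its CD8 call was lost without either wild-type CD8 array (adjusted p = 0.0948 and 0.0731) or deficient CD8 replicate 1 (adjusted p = 0.0623), and its lineage difference was 0.51 with probe sets averaged (adjusted p = 0.25).

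Rnf43, a ubiquitin ligase that removes Wnt receptors, stood at 2.73 and 2.54 in deficient CD8 and 2.45 and 2.72 in wild-type CD8 cells, near background and overlapping. In CD4 cells it stood at 2.69, 2.71 and 2.49 in deficient and at 3.62, 3.75 and 3.86 in wild-type cells, the only group above the table median. It fell by 1.11 ± 0.12 in CD4 cells (adjusted p = 2.89e-05), to a level near background, and the lineage difference was 1.16 ± 0.20 (adjusted p = 0.031). The call of Rnf43 held only without deficient CD8 replicate 2 among the 10 arrays left out in turn (1.02 to 1.30, adjusted p up to 0.237).

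By level, 7 of the 20 called genes had both groups of a lineage near background, Adipoq and Rnf43 in CD8 cells and Gria3, Pltp, 5430427O19Rik, Acsbg3 and Glrp1 in CD4 cells. In 4 genes a group was near saturation, namely Ccr9, Klrd1, Epsti1 and Igfbp4. The other 9 lay between these limits in all 4 groups. Of the 20, 9 had effects of opposite sign in the lineages, although for none of them were both effects called.

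**Figure D3:**
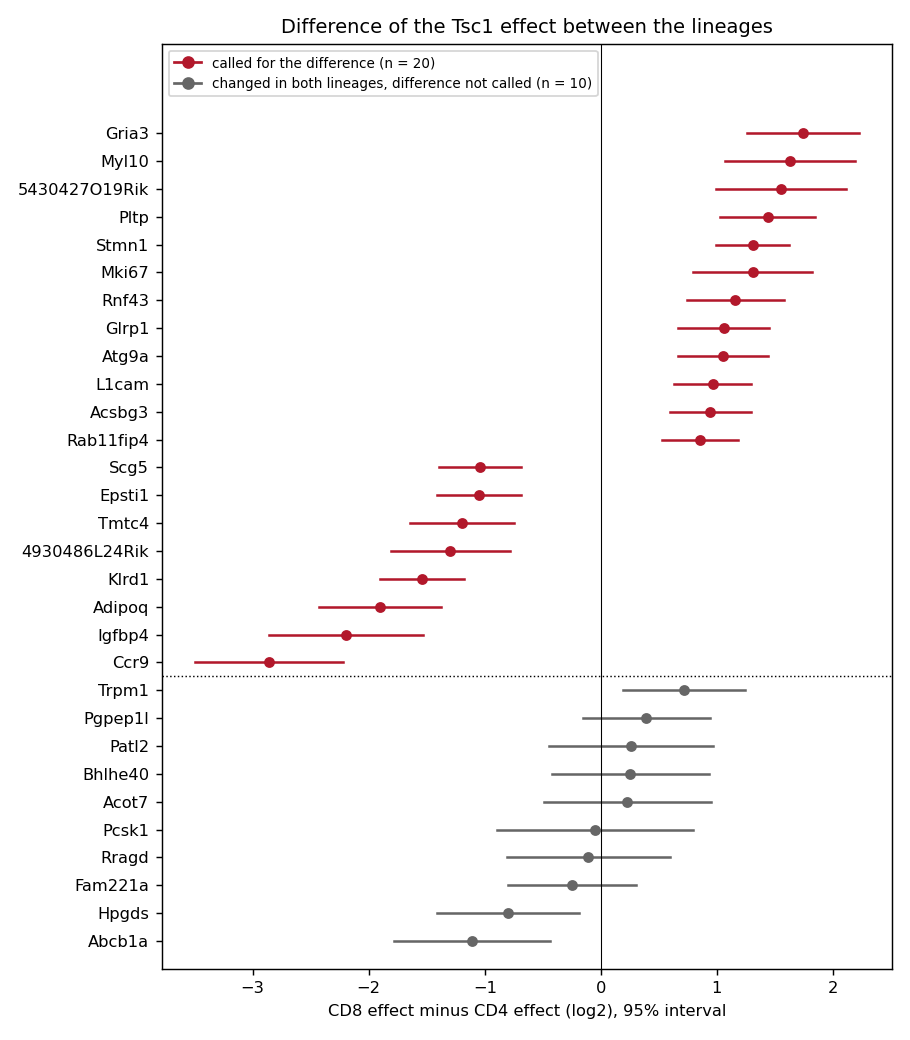
Points give the lineage difference (CD8 effect minus CD4 effect, log2) and bars its 95% interval, in red for the 20 called genes and in grey for the 10 genes changed in both lineages with the largest smaller effect and no call for the difference. The called genes run from 1.74 for Gria3 to -2.86 for Ccr9, and the intervals of Trpm1, Hpgds and Abcb1a among the grey ones exclude 0 without passing the adjustment.

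Promoter sequence was read for the called genes as context, since E-boxes bind the transcription factors TFEB, TFE3 and Myc, which act downstream of mTORC1, and since Runx factors set the CD8 fate. RefSeq promoters on build GRCm38.p6, from 250 bases before to 50 after a gene's start, were at hand for 16 of the 20 genes. The E-box CACGTG occurred in 0 of 16 on either strand, against 7.15% of all 32851 promoters, and the Runx core TGTGGT in 2 of 16, against 16.8% of all. The promoter of Ccr9, the gene with the largest lineage difference (chr9:123766961-123767260, plus strand), is shown with those of Atg9a (chr1:75191961-75192260, minus strand) and Glrp1 (chr1:88510017-88510316, minus strand), the genes with a Runx core, which is in capitals. Both cores lie on the opposite strand and so read ACCACA. They were picked after the values were seen, and a match of letters is not evidence of binding.
Ccr9: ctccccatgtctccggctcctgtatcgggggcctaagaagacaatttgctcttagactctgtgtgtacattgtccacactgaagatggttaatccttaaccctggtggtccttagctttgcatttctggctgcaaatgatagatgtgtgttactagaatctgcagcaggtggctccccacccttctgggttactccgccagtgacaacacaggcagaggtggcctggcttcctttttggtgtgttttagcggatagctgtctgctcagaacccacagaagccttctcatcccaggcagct
Atg9a: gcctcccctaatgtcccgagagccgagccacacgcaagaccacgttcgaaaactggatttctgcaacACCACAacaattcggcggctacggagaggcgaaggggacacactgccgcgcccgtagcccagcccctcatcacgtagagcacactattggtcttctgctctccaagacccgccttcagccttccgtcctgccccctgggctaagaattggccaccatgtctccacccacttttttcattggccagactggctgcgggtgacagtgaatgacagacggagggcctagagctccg
Glrp1: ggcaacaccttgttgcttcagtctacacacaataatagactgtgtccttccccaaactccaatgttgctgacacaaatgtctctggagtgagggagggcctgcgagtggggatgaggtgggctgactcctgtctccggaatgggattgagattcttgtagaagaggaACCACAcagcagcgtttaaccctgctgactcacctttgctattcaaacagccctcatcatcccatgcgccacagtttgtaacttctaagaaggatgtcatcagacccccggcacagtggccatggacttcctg

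The 10 genes with the largest effects in both lineages were chosen among those with no call for the lineage difference, so their differences are given as a description. Rragd, a Rag GTPase that helps to bring mTORC1 to the lysosome, stood at 6.93 and 6.33 in deficient CD8 cells, against 3.72 and 4.02 in wild-type CD8 cells. On CD4 arrays the signal was 6.84, 6.77 and 7.01 in deficient and at 4.64, 3.72 and 3.65 in wild-type cells. The levels of the 2 lineages overlapped within each genotype. Rragd rose by 2.76 ± 0.26 in CD8 and by 2.87 ± 0.21 in CD4 cells, and the lineage difference of -0.11 had a 95% interval of -0.81 to 0.60. Fam221a rose by 3.45 ± 0.20 in CD8 and by 3.69 ± 0.17 in CD4 cells (-0.25, interval -0.80 to 0.31), and the proprotein convertase Pcsk1 by 2.55 ± 0.31 in CD8 and 2.61 ± 0.25 in CD4 cells (-0.05, interval -0.90 to 0.79). Both wild-type groups of Pcsk1 were near background, with means of 3.20 in CD8 and 2.82 in CD4 cells.

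For Abcb1a, an efflux transporter, the rise was 2.52 in CD8 and 3.63 in CD4 cells, and the lineage difference of -1.11 did not pass (interval -1.79 to -0.44, adjusted p = 0.389). Hpgds, a prostaglandin D synthase, rose by 2.21 in CD8 and 3.01 in CD4 cells (adjusted p = 0.555 for the difference) with both wild-type groups near background, and the ion channel Trpm1 by 3.11 in CD8 and 2.39 in CD4 cells (adjusted p = 0.512 for the difference). For Patl2, Acot7, Pgpep1l and Bhlhe40 the lineage differences lay between 0.23 and 0.39.

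Among genes called in CD8 cells alone, large effects without a called difference were common. Ccl3, a chemokine of activated T cells and macrophages that was near background in wild-type cells of both lineages, stood at 4.998 and 4.35 in deficient CD8 and 2.88 and 2.62 in wild-type CD8 cells (1.92 ± 0.24), with a CD4 effect of 0.55 ± 0.20, and its lineage difference of 1.37 gave an adjusted p of 0.178. Klra9, a lectin-like receptor of the Ly49 family, whose members are near-identical in sequence, had effects of 1.90 in CD8 and 0.63 in CD4 cells (adjusted p = 0.244 for the difference). Cxxc5, a CXXC zinc finger protein, fell by 1.77 ± 0.23 in CD8 cells with a CD4 effect of -0.45 ± 0.19 (adjusted p = 0.178 for the difference), and the co-stimulatory ligand Cd86 fell by 1.83 ± 0.25 with a CD4 effect of -0.70 ± 0.20 (adjusted p = 0.389 for the difference).

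Among genes called in CD4 cells alone, Cnr2, the cannabinoid receptor of immune cells, lay near the threshold for the difference. It stood at 7.51 and 6.83 in deficient CD8 and 6.67 and 6.69 in wild-type CD8 cells, and at 6.92, 6.86 and 6.78 in deficient CD4 and 5.28, 5.04 and 5.14 in wild-type CD4 cells. Its lineage difference was -1.20 ± 0.23 (adjusted p = 0.0635), and its CD8 effect was 0.50 with both deficient CD8 arrays and 0.84 (adjusted p = 0.0101) without replicate 2. Plac8, a small protein of myeloid and activated lymphoid cells, had effects of 1.09 in CD8 and 2.09 in CD4 cells (adjusted p = 0.698 for the difference), and its deficient CD8 mean of 11.63 was near saturation.

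Dusp6, a phosphatase that switches off ERK, and Rptor, the raptor subunit of mTORC1, also lay near the threshold. Dusp6 stood at 7.52 and 7.41 in deficient CD8 cells, against 8.65 and 8.58 in wild-type CD8 cells, and at 7.51, 7.88 and 8.15 in deficient CD4 and 7.21, 7.68 and 7.72 in wild-type CD4 cells, where the arrays overlapped. Its lineage difference was -1.46 ± 0.28 (adjusted p = 0.057). Rptor stood at 6.93 and 6.87 in deficient CD8 and 6.24 and 6.16 in wild-type CD8 cells, and at 6.02, 5.94 and 6.12 in deficient CD4 and 5.98, 6.10 and 5.92 in wild-type CD4 cells. It rose by 0.70 ± 0.11 in CD8 cells (adjusted p = 0.000778), and the lineage difference of 0.67 ± 0.14 had an adjusted p of 0.103.

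Gene lists were then read for both lineages, 19 lists of pathways and functions in all. Only mitosis, effector and memory, cytotoxic and homing lists held a called lineage difference, 1 gene each, namely Mki67, Klrd1 in 2 lists, and Ccr9. The counts of called members are to be read against all genes, of which 3.64% rose and 2.18% fell in CD8 cells and 3.96% rose and 1.87% fell in CD4 cells. Over all genes the median lineage difference was -0.02, and from the 5th to the 95th percentile genes lay between -0.42 and 0.39.

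Some of the cell division genes rose in each lineage. Of 27 mitosis genes 15 rose in CD8 cells and 10 in CD4 cells, and 0 fell in either. The median effect was 0.75 in CD8 and 0.53 in CD4 cells, and the median lineage difference was 0.28, with 20 of 27 above 0 against 7936 of 17097 genes. Besides Mki67, the survivin gene Birc5 rose by 2.40 ± 0.31 in CD8 and 1.62 ± 0.25 in CD4 cells and the spindle protein gene Nusap1 by 2.01 ± 0.33 in CD8 cells, with a CD4 effect of 0.89 ± 0.27 (adjusted p = 0.0668). The kinesin Kif23 went the other way, with a rise of 1.39 ± 0.31 in CD8 and 2.47 ± 0.26 in CD4 cells (lineage difference -1.09, adjusted p = 0.561). The wild-type mean was near background for Birc5 in CD4 cells (3.18, 3.40 and 3.23) and for Nusap1 in CD8 cells (3.33 and 3.09). Of the 27 genes, 14 had means above the table median in wild-type CD8 and 15 in wild-type CD4 cells. In deficient cells 22 did in CD8 and 19 in CD4, so many effects of the list start from the floor. Without the 3 arrays low in immediate early genes the median lineage difference of the list was 0.08, with 16 of 27 above 0.

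Of 27 genes for DNA replication and S phase, 10 rose in CD8 and 7 in CD4 cells, and 0 fell. The median lineage difference was 0.12, and -0.01 without those 3 arrays. Rrm2, a subunit of ribonucleotide reductase, rose by 2.48 ± 0.21 in CD8 and 1.72 ± 0.17 in CD4 cells (adjusted p = 0.554 for the difference).

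Sterol and fatty acid synthesis, which mTORC1 drives through SREBP, rose in part in both lineages. Of 21 genes, 3 rose in CD8 and 10 in CD4 cells, and 0 fell. The median effect was 0.33 in CD8 and 0.49 in CD4 cells, the median lineage difference was -0.16, and 4 of 21 lay above 0. Cyp51, a sterol demethylase, rose in both lineages (1.46 ± 0.17 in CD8, 1.29 ± 0.14 in CD4), whereas the squalene epoxidase Sqle rose in CD4 cells (0.81 ± 0.14) with a CD8 effect of 0.43 ± 0.17 (adjusted p = 0.16). The lineage differences of the list did not pass in limma, and the CD4 groups hold 1 array more than the CD8 groups.

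Of 23 lysosome and autophagy genes, 11 rose in CD8 and 14 in CD4 cells, and 0 fell. The median effects were 0.48 in CD8 and 0.40 in CD4 cells, and the median lineage difference was 0.02. The protease Ctsd stood at 10.23 and 10.27 in deficient CD8 cells, against 9.11 and 9.12 in wild-type CD8 cells, and rose by 1.14 ± 0.13 there and by 0.60 ± 0.10 in CD4 cells (adjusted p = 0.424 for the difference). Lamp2, a lysosomal membrane protein, rose by 1.51 ± 0.14 in CD8 and 1.18 ± 0.12 in CD4 cells. Among 25 mTOR pathway components 5 rose and 2 fell in each lineage, with a median lineage difference of 0.01. The deleted gene, Tsc1, is in this list and was among those that fell in each lineage.

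Effector and memory genes showed a mixed picture. Of 33, 8 rose and 1 fell in CD8 cells, and 9 rose and 3 fell in CD4 cells, with a median lineage difference of 0.07 (-0.27 without the 3 arrays low in immediate early genes). The inhibitory lectin receptor Klrg1 rose alike in value (0.89 ± 0.18 in CD8, 0.86 ± 0.14 in CD4, interval of the difference -0.45 to 0.51), as did the chemokine receptor Cxcr3 (1.55 ± 0.32 in CD8, 1.22 ± 0.26 in CD4, interval -0.53 to 1.20). Cd44, the adhesion receptor that naive cells hold low, fell in CD4 cells (-0.997 ± 0.12, adjusted p = 8.38e-05), with a CD8 effect of -0.32 ± 0.15 (adjusted p = 0.392 for the difference). Of 20 cytotoxic granule and lectin receptor genes, 2 rose and 1 fell in CD8 cells and 5 rose and 1 fell in CD4 cells. In the homing list of 19, 3 rose in CD8 and 2 in CD4 cells and 0 fell, Ccr9 and Cxcr3 among those in both.

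The immediate early list had a median lineage difference of -0.35 over 27 genes, the lowest of the 19 lists with all arrays but not without the 3 low arrays, where the cytokine receptor chains were lowest at -0.38. It had median effects of -0.52 in CD8 and -0.03 in CD4 cells. Of the 27, 2 rose and 3 fell in CD8 cells and 2 rose and 1 fell in CD4 cells. Fosb, a subunit of the AP-1 factor, shows the spread, at 5.39 and 8.53 in deficient CD8 and 7.60 and 7.68 in wild-type CD8 cells, and at 4.90, 7.47 and 7.88 in deficient CD4 and 4.06, 6.83 and 6.62 in wild-type CD4 cells. Replicate 1 was low in every group but wild-type CD8. Without the 3 low arrays the median lineage difference of the list was -0.21 and the median CD8 effect -0.20. The transcription factor Myc stood at 8.43 and 8.09 in deficient CD8 and 8.97 and 9.14 in wild-type CD8 cells and fell by 0.80 ± 0.20 (adjusted p = 0.0279), with a CD4 effect of -0.27 ± 0.17.

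Of 23 cytokine receptor chains, 1 rose and 4 fell in CD8 cells and 3 rose and 2 fell in CD4 cells, among them Il6st, the shared gp130 chain, which fell by 1.41 ± 0.11 in CD8 and 0.86 ± 0.09 in CD4 cells (adjusted p = 0.253 for the difference). Of 24 ATF4 targets and tRNA charging genes, 5 rose in CD8 and 8 in CD4 cells. The 29 T cell receptor signalling genes had a median effect of -0.02 in CD8 and 0.01 in CD4 cells. Of 20 interferon response genes 1 rose in CD4 cells, with a median lineage difference of 0.12 that was -0.29 without the 3 low arrays. The median lineage differences of the lists for oxidative phosphorylation, glycolysis, ribosome biogenesis, naive quiescence, apoptosis and GIMAP genes lay between -0.08 and 0.07. Of 26 oxidative phosphorylation genes, 2 rose in CD8 and 4 in CD4 cells, of 15 glycolysis genes 1 rose in each lineage, and of 8 GIMAP genes 1 rose in CD8 cells and 1 rose and 1 fell in CD4 cells. Of 21 ribosome biogenesis genes, 1 rose and 2 fell in CD8 cells and 1 rose in CD4 cells. Of 21 naive quiescence genes, 1 rose and 1 fell in CD8 cells and 1 rose and 2 fell in CD4 cells, and of 20 apoptosis genes 2 rose and 1 fell in CD8 cells and 1 rose in CD4 cells.

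**Figure D4:**
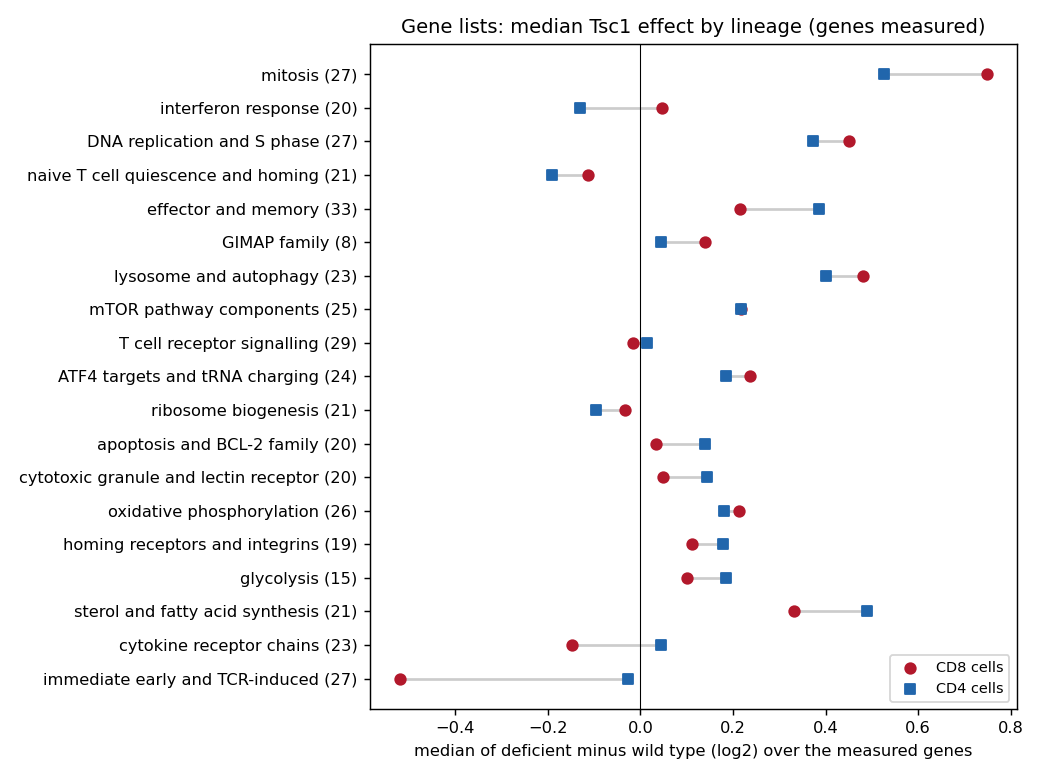
Each row is a gene list with the number of measured genes in brackets, and the points give the median over its genes of the Tsc1 effect (deficient minus wild type, log2) in CD8 cells (red circles) and CD4 cells (blue squares), ordered by the median lineage difference. Mitosis lies at 0.75 in CD8 and 0.53 in CD4 cells, and the immediate early list at -0.52 in CD8 and -0.03 in CD4 cells.

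Markers of other cells that a sort could hold were read in the same way, as linear signal summed over a list on each array. The 10 neutrophil genes summed to 423 and 917 in deficient CD8 and 129 and 341 in wild-type CD8 cells, and to between 301 and 1312 in deficient CD4 and 119 and 290 in wild-type CD4 cells. They were thus higher in deficient cells of both lineages, with a median effect of 0.88 in CD8 and 1.18 in CD4 cells and a median lineage difference of -0.23. Ngp, a neutrophil granule gene, rose in CD4 cells (2.64 ± 0.67, adjusted p = 0.0277), and its CD8 effect was 2.09 ± 0.83 (adjusted p = 0.167). The 10 NK or NKT genes summed to 610 and 911 in deficient CD8 and 615 and 631 in wild-type CD8 cells. In CD4 cells they summed to between 403 and 438 in deficient and 284 and 315 in wild-type cells. Of the 10, 1 was called higher and 1 lower in CD4 cells, and 5 lay above the table median in each group. Eomes carried a large part of the rise, at 7.08, 7.04 and 6.21 in deficient CD4 and 5.80, 5.71 and 5.21 in wild-type CD4 cells.

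The 5 CD8 lineage genes summed to between 839 and 916 in deficient CD4 and 810 and 1087 in wild-type CD4 cells, against at least 11254 on every CD8 array; the sums of the CD4 genotypes overlapped. Single members moved in both directions in CD4 cells, where 1 of the 5 rose and 2 fell. Cst7, an inhibitor of granule proteases, stood at 8.39, 7.63 and 7.60 in deficient CD4 cells, against 6.87, 6.67 and 6.70 in wild-type CD4 cells (1.13 ± 0.24, adjusted p = 0.00831), and the transcription factor Runx3 fell by 0.55 ± 0.10 (adjusted p = 0.00186; -0.33, adjusted p = 0.0888 with probe sets averaged). Cd8a was lower in deficient CD4 cells, at 5.55, 5.59 and 5.59, against 6.99, 6.11 and 6.16 in wild-type CD4 cells (adjusted p = 0.0268), a call that was lost without wild-type CD4 replicate 1 (-0.56, adjusted p = 0.122) or any 1 deficient CD4 array (adjusted p = 0.0692 to 0.0893). Regulatory T cell genes, 10 in number, summed to 1463 and 1576 in deficient CD8 and 1089 and 1219 in wild-type CD8 cells, and to between 922 and 1024 in deficient CD4 and 835 and 923 in wild-type CD4 cells. Of the 10, 2 were called higher in CD8 cells, and 1 higher and 1 lower in CD4 cells. The integrin gene Itgae carried a large part of the CD8 sums, at 9.35 and 9.47 in deficient and 9.07 and 8.71 in wild-type CD8 cells. The part of any of these cell types in the lineage differences was not tested. The median lineage difference was 0.40 for the 4 CD4 lineage genes, 0.36 for the regulatory T cell genes, 0.23 for the CD8 lineage genes and -0.25 for the NK or NKT genes. For the B cell, monocyte, erythroid, platelet, gamma delta and thymocyte lists it lay between -0.18 and 0.06. Without the 3 arrays low in immediate early genes it was -0.40 for the monocyte, -0.25 for the gamma delta and 0.14 for the platelet list. In that setting it changed sign for the CD8 lineage genes, to -0.09. It was then 0.48 for the CD4 lineage, 0.20 for the regulatory T cell and -0.37 for the NK or NKT genes.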

How the data were processed

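The 16 arrays were normalized by the authors, and the deposited values are log2 signals, credited to RMA in Partek 6.5 per the submitters' processing notes. Raw scans were not used here. The table holds 45141 probe sets, of which 28898 were paired with 1 gene by the platform annotation, 551 with several, 15588 with none listed, and 104 were controls. For 7180 of 17097 genes the brightest of several probe sets was taken.

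Group means of all 16 arrays entered 1 linear model in limma 3.58.1 (R 4.3.3) with 10 residual degrees of freedom and moderated variances (prior SD 0.146, 6.23 prior degrees of freedom), and every contrast but the stimulated CD4 effect used the unstimulated groups. Precision is limited by how few arrays there are. The fit was also run on simulated data with independent noise on each array. Such data hold no difference shared by arrays, so the run does not test the array differences described above. The compared groups and gene lists were chosen with earlier results of these data known.

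Genes named are the called ones above the table median, the 10 strongest shared ones, up to 5 each way called in 1 lineage at 2-fold, and up to 4 members per list by size of the lineage difference, not all of them printed, besides list members and Fabp4 chosen after values were seen. Alternatives were the probe set choice, filters, normalization, variance moderation, array weights, arrays in the fit, the Gapdh difference as a covariate, thresholds and each array left out.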

Additional observations from a re-analysis of the deposited data

Results flagged for a closer look

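Each of the 20 called genes had Tsc1 effects that differed between CD8 and CD4 cells by the test of the difference itself (limma, adjusted over all genes), and each is listed here with that value, CD8 effect minus CD4 effect on the log2 scale. The negative differences were -2.86 for Ccr9, -2.20 for Igfbp4, -1.90 for Adipoq, -1.54 for Klrd1, -1.30 for 4930486L24Rik, -1.20 for Tmtc4, -1.05 for Epsti1 and -1.04 for Scg5. The positive ones were 1.74 for Gria3, 1.63 for Myl10, 1.55 for 5430427O19Rik, 1.44 for Pltp, 1.31 for Stmn1, 1.31 for Mki67, 1.16 for Rnf43, 1.06 for Glrp1, 1.05 for Atg9a, 0.97 for L1cam, 0.94 for Acsbg3 and 0.86 for Rab11fip4. Ccr9 and Klrd1 were called with any 1 unstimulated array left out, without the 3 arrays low in immediate early genes, and with 9 unstimulated arrays alone. Both of the latter fits held only 1 deficient CD8 array.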

How the results depend on the processing

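No paired analysis was possible because the labels give no replicate numbers. No called direction reversed among the named genes under the alternatives run. Of the lineage differences of named genes under the alternatives, 3045 kept their side of the threshold, 138 lost a call and 19 gained 1. All 138 losses fell on the 20 called genes. Most named genes had no call to lose, so the 3045 do not measure how stable the 20 calls were. The lineage difference of the Tsc1 effect was called for 20 genes as reported, for 32 probe sets with every probe set tested, for 11 genes when all 4 groups had to exceed the table median, for 31 without the 2 arrays with the largest Gapdh difference (12 of the 20 among them), for 5 with 9 unstimulated arrays and deficient CD8 replicate 2 left out (3 of the 20) and for 5 without the 3 unstimulated arrays lowest in immediate early genes (4 of the 20), the last 2 settings being chosen after seeing the data. With each array left out it ranged from 7 to 24.

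The Tsc1 effect in unstimulated CD8 cells, 995 genes, became 191 with a 2-fold threshold and 1569 at adjusted p under 0.1, and ranged from 305 to 927 with each array left out, lowest without wild-type CD8 replicate 1 (305) and 2 (459). Without the 3 low arrays it was 708, of which 296 were higher, against 622 of 995. The Tsc1 effect in unstimulated CD4 cells, 997 genes, became 1937 with array weights, 1723 without the 2 arrays with the largest Gapdh difference, 161 at 2-fold and 489 without the 3 low arrays, and ranged from 589 to 1156. CD8 minus CD4 in wild-type cells, 862 genes, became 1391 with array weights, 1324 without the 2 Gapdh arrays and 247 at 2-fold, and ranged from 416 to 916. CD8 minus CD4 in Tsc1-deficient cells, 1142 genes, became 250 at 2-fold and ranged from 511 to 1508. Where an array outside a contrast was left out, the effects stayed the same and only the shared estimate of the spread changed. This holds for the 2 Gapdh arrays in the CD4 effect and in wild-type CD8 minus CD4. Those arrays were stimulated deficient CD4 replicate 1 and deficient CD8 replicate 2. The cause of the other changes was not tested. Genes near background or near saturation limit what these arrays can show of a difference.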
